A study of Mus musculus with 12 samples.

Results

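The MYC/MAX/MXD network comprised 10 genes, taken by symbol from the 24982 symbols listed for each library: Myc, Mycn, Max, Mlx, Mxd1, Mxd3, Mxd4, Mxi1, Mnt and Mga. All 10 symbols were found. The rule takes them by name and uses no measured value, but the family was picked for description with earlier results of these data known. Polyadenylated RNA had been sequenced from splenic B lymphocytes of mice aged 6 weeks, in 12 libraries. WT was C57BL/J6 (4 libraries), Eμ-Myc carried a Myc transgene driven by the immunoglobulin heavy-chain enhancer (4 libraries), and Eμ-Myc; PRPS2 KO carried the same transgene and lacked PRPS2, an enzyme that makes phosphoribosyl pyrophosphate for nucleotide synthesis (4 libraries). The study set Eμ-Myc against WT for the genes that MYC deregulates, and Eμ-Myc; PRPS2 KO against Eμ-Myc for the effect of PRPS2 loss on that programme. Eμ-Myc; PRPS2 KO against WT is also given here, and it shares the WT libraries with the first comparison. The knockout group has no partner without the transgene. Coverage was deposited by gene symbol, so RNA from the transgene and from the resident Myc gene cannot be told apart. The labels call the 4 libraries of a group biological replicates without naming the animals, and every p-value measures the spread between these libraries.

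MYC and MYCN are basic helix-loop-helix leucine zipper proteins that bind DNA only as dimers with MAX, at E-box sites such as CACGTG, and mostly raise transcription of genes for growth and division. MXD1, MXD3, MXD4, MXI1 and MNT also dimerise with MAX, bind the same sites and recruit SIN3 corepressors, so they compete with MYC for MAX and for DNA. MGA pairs with MAX inside a polycomb-type repressor, and MLX is a MAX-like protein that binds part of the MXD family, MNT and the nutrient-responsive factors MLXIP and MLXIPL. In B cells MYC is induced transiently when a resting cell is activated, whereas MXD1 and MXD4 are known mainly from cells that leave the cycle and MXD3 from cells in S phase.

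The E-box is shown here in the promoters of the network genes themselves, since it is the site that their proteins bind. Promoter windows of 300 bases, from 250 before to 50 after the RefSeq start (GRCm38.p6), were found for 9 members and none was matched for Myc. CACGTG, which reads the same on both strands, was present in 4 of the 9, or 44.4%. Over all 27025 genes in the promoter table, expressed here or not, the share was 8.09%. Of the 9793 genes with a window that were tested in Eμ-Myc against WT, 1169 held it. The stretch before and around each match is printed 5′ to 3′ on the gene's own strand, with CACGTG in capitals.
Max, chr12:76962246-76962278, minus strand: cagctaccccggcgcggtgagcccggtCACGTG
Mxd4, chr5:34187897-34187956, minus strand: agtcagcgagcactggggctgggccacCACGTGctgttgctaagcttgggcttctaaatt
Mnt, chr11:74830774-74830833, plus strand: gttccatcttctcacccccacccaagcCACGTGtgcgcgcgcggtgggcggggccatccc
Mlx, chr11:101087223-101087282, plus strand: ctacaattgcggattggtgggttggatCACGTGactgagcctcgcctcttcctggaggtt
The match begins 219 bases before the start in Mxd4, 123 before it in Mnt and 40 before it in Mlx. In Max it spans the start, with 3 bases on either side. No match was found in the windows of Mycn, Mxd1, Mxd3, Mxi1 (3 windows) and Mga, which says only that these letters are not in those windows.

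Values are mean read coverage per base of a gene after scaling between libraries (scaled coverage). That they are per base is read from the form of the values, of which 91.64% of those above 0 are not whole numbers. It is not stated in the sources used here, and no comparison of the values with gene length is reported here. Levels of different genes, ratios and sums over genes rest on that reading. Means are given ± SD with n = 4. Changes are log2 fold changes ± SE from limma, fitted to all genes that reached a scaled coverage of 1 in 4 or more of the 8 libraries. Genes with a p under 0.05 after Benjamini-Hochberg adjustment across that whole table are named as called. Read numbers are not recorded for any value. In bulk RNA of this kind, fewer cells of a type and less RNA per cell cannot be told apart. The scaling sets libraries to a common level, so every rise or fall is relative to the other genes. Total RNA per cell was not measured.

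Between 14900 and 16231 genes were above 0 per library, and summed coverage ran from 1277305.5 to 1885768.9. Prps2 itself lay at 245 ± 39.5 in Eμ-Myc and 16.9 ± 0.798 in Eμ-Myc; PRPS2 KO, with the 4 knockout libraries between 16.1 and 17.8. All 8 measured B-cell identity markers were above 0 in every library, which does not measure purity. Their sums were 15999 to 26153 in WT and 14171.5 to 18703 in Eμ-Myc. In the knockout group they were 15867 and 15510 in libraries 1 and 2, and 10641 and 11040 in libraries 3 and 4. Some libraries stood apart from their group. WT library 1 had a summed coverage of 10 myeloid markers of 28022, against 8359 to 15436 in the other WT libraries. WT library 4 had summed T-cell markers of 2541, against 435 to 846. Knockout libraries 3 and 4 had T-cell sums of 12.4 to 13.7 and myeloid sums of 1357 to 3154, whereas knockout libraries 1 and 2 had 516 to 554 and 11653 to 16000. The same knockout libraries 3 and 4 had more of 10 proliferation genes (3290 to 3312, against 1056 to 1438) and less of 5 mature B-cell genes (486 to 545, against 1844 to 2125). Eμ-Myc libraries 3 and 4 differed from 1 and 2 in the same direction, by less. Their proliferation sums were 2419 to 2574 against 1813 to 1859, and their myeloid sums 6083 to 6929 against 10314 to 17711. Mature B-cell sums were 1017 to 1086 against 1173 to 1466, while T-cell sums of the Eμ-Myc libraries overlapped. For some results of the members, the value with a single library left out is given too.

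In Eμ-Myc against WT, 5 of the 9 tested members were called. Myc, Mxd3 and Mxi1 rose, and Mnt and Mlx fell. Of all 12704 genes tested, 55.6% were called (29.0% higher and 26.6% lower), so the members' share is close to the background. The groups did not overlap for 5 members, Myc, Mxd3, Mxd1, Mnt and Mlx, beside 52.0% of all genes (27.0% higher and 25.0% lower). The members' median log2 fold change was -0.05 and that of all genes was -0.04. When libraries were scaled by total coverage, the median of all genes moved to -0.19 and the calls split into 3057 higher and 4227 lower, in place of 3682 and 3384. The members called were then 2 higher and 3 lower, since Mxi1 lost its call and Mxd1, which is described further on, gained one. Leaving out WT library 3 or Eμ-Myc library 2, 3 or 4 reduced the members' calls to 3, where 49.3%, 55.1%, 47.0% and 47.1% of all genes were called. Quality weights called 6 members and 71.1% of all genes. Mycn did not reach the filter in any comparison.

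**Figure D1:**
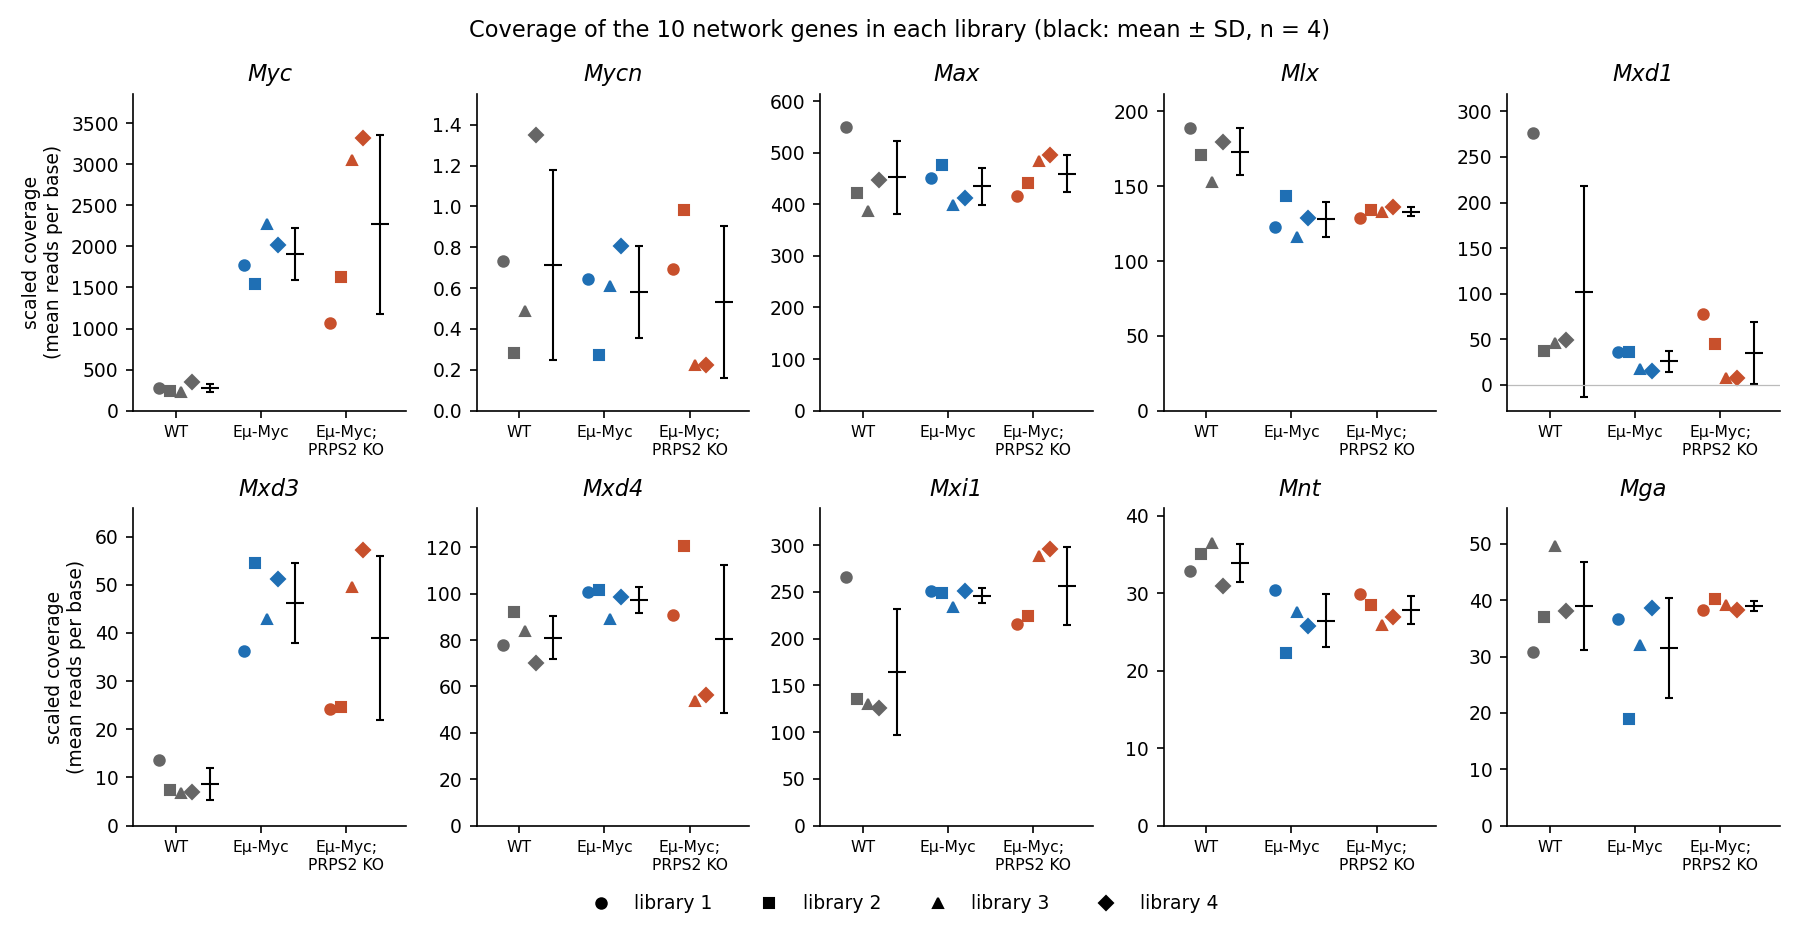
Scaled coverage (mean reads per base, linear axis) of the 10 network genes in each of the 12 libraries. Each symbol is a library, its shape gives the replicate number, and black marks are the mean ± SD of 4 libraries; Myc lies at 233 to 348 in WT and at 1073 to 3316 in the other groups, while Max stays between 388 and 550 throughout.

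Myc (chr15:61985391-61990374, plus strand), the transforming member and the gene carried by the transgene, was the member with the largest rise. Its scaled coverage in WT libraries 1 to 4 was 281, 244, 233 and 348. In Eμ-Myc it was 1778, 1544, 2277 and 2019. With PRPS2 also lost it was 1073, 1631, 3051 and 3316. Every library with the transgene was above every WT library, and the knockout libraries fell into a lower and a higher pair on either side of most Eμ-Myc libraries. Myc was 6.89-fold higher in Eμ-Myc than in WT, a log2 change of 2.78 ± 0.16 (limma adjusted p = 3.75e-06). It was also higher in Eμ-Myc; PRPS2 KO than in WT, by 2.91 ± 0.36 on the log2 scale (limma adjusted p = 0.0128). That second call was lost without WT library 2 (2.85, limma adjusted p = 0.0525) or WT library 3 (2.83, adjusted p = 0.0540), with little change in size.

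Mycn (chr12:12936093-12941914, minus strand), the paralogue known from neural tissue and early progenitors, was near the bottom of the measured range. Its scaled coverage ran from 0.282 to 1.35 in WT, from 0.270 to 0.805 in Eμ-Myc and from 0.224 to 0.984 in Eμ-Myc; PRPS2 KO. The 3 ranges overlapped, and the gene was not tested. Mycl, the remaining paralogue and not a member, was at 23.2 ± 7.74 in WT and 14.7 ± 2.19 in Eμ-Myc, a log2 difference of -0.58 ± 0.27 that did not pass (limma adjusted p = 0.0902).

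Max (chr12:76937269-76962201, minus strand), the obligate partner, was the member with the highest coverage in WT. Its scaled coverage was 550.3, 422, 388 and 447 in WT libraries 1 to 4. It was 450.2, 476, 398 and 413 in Eμ-Myc, and 417, 441, 485 and 495 in Eμ-Myc; PRPS2 KO. The groups overlapped throughout, with WT library 1 the highest of all 12. The log2 difference was -0.05 ± 0.12 for Eμ-Myc against WT (limma adjusted p = 0.758), with its sign turned to 0.05 without WT library 1. It was 0.03 ± 0.14 for Eμ-Myc; PRPS2 KO against WT (limma adjusted p = 0.855), and -0.07 when libraries were scaled by total coverage.

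The coverage of Myc relative to Max followed from these values. The ratio of Myc to Max was 0.618 ± 0.114 in WT, where it lay between 0.511 and 0.779. It was 4.45 ± 1.08 in Eμ-Myc, between 3.24 and 5.72. The knockout group had ratios of 2.57 and 3.69 in libraries 1 and 2 and 6.29 and 6.70 in libraries 3 and 4. Max was thus above Myc in each WT library and below it in each library with the transgene, as RNA coverage per base. Protein was not measured.

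Mxd3 (chr13:55325168-55329823, minus strand), the MXD protein associated with S phase, rose most after Myc. Its scaled coverage in WT libraries 1 to 4 was 13.7, 7.33, 6.80 and 6.98. It was 36.3, 54.4, 42.9 and 51.3 in Eμ-Myc, and 24.3, 24.6, 49.5 and 57.3 in Eμ-Myc; PRPS2 KO. All libraries with the transgene lay above all WT libraries, and knockout libraries 1 and 2 lay below all Eμ-Myc libraries. The log2 change was 2.39 ± 0.23 in Eμ-Myc against WT (limma adjusted p = 4.07e-05) and 2.05 ± 0.36 in Eμ-Myc; PRPS2 KO against WT (limma adjusted p = 0.0146). As for Myc, the second call was lost without WT library 2 (1.99, limma adjusted p = 0.0539) or WT library 3 (1.96, adjusted p = 0.0544). Without WT library 1 the first change was 2.61 (limma adjusted p = 9.23e-06).

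Proliferation genes were higher in the same groups as Mxd3. All 10 of the list were higher in Eμ-Myc than in WT, and their summed coverage was 354 to 481 in WT, 1813 to 2574 in Eμ-Myc and 1056 to 3312 in Eμ-Myc; PRPS2 KO. WT library 1 and knockout libraries 3 and 4 were the highest of their groups in both measures. Within Eμ-Myc the order differed, since library 2 had the highest Mxd3 (54.4) with a proliferation sum of 1859, and library 3 had Mxd3 at 42.9 with a sum of 2419. The part of proliferation in the Mxd3 result was not tested. Exons of Mxd3 share 105 bases (4.43% of its exonic length) with Prelid1 on the opposite strand, and the use of strand in counting is not given in the sources used here. Prelid1 was at 323 ± 54.6 in WT and 446 ± 78.7 in Eμ-Myc.

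Mxi1 (chr19:53310518-53375810, plus strand), the MXD family member MXI1, had the highest coverage of the antagonists in each group. It was 265, 136, 130.2 and 126 in WT libraries 1 to 4. It was 251, 249, 234 and 251 in Eμ-Myc, and 216, 224, 289 and 296 in Eμ-Myc; PRPS2 KO. WT libraries 2 to 4 lay close together and below all other libraries, while WT library 1 lay inside the Eμ-Myc; PRPS2 KO range and above every Eμ-Myc library. The log2 change in Eμ-Myc against WT was 0.66 ± 0.22 (limma adjusted p = 0.0301, groups overlapping). Without WT library 1 it was 0.91 ± 0.091 (limma adjusted p = 9.60e-05). Leaving out any other library, or scaling by total coverage (0.51, limma adjusted p = 0.0549), ended the call, with adjusted p between 0.0554 and 0.0767 over those libraries. Against WT, Eμ-Myc; PRPS2 KO was at 0.70 ± 0.26 (limma adjusted p = 0.0686), and at 0.96 without WT library 1 (adjusted p = 0.0336).

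Mxd4 (chr5:34173883-34187720, minus strand), whose promoter holds an E-box, was at 77.7, 92.2, 83.8 and 70.3 in WT. It was at 100.6, 101.4, 89.0 and 98.4 in Eμ-Myc, and at 90.9, 120.8, 53.9 and 56.3 in Eμ-Myc; PRPS2 KO. Eμ-Myc overlapped WT only through library 3, and the knockout libraries held both the highest and the lowest values of the 12. The log2 difference of 0.27 ± 0.11 in Eμ-Myc against WT did not pass (limma adjusted p = 0.0551), and passed without WT library 2 (0.33, adjusted p = 0.0338). Knockout libraries 3 and 4, the lowest in Mxd4, were also the lowest in the 5 mature B-cell genes, which summed to 3514 to 4949 in WT and 1017 to 1466 in Eμ-Myc. All 5 of those genes were called lower in Eμ-Myc against WT, the opposite of the direction of Mxd4. The part of B-cell maturity in the Mxd4 values was not tested.

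Mxd1 (chr6:86647042-86669161, minus strand), the founding MXD protein and one abundant in maturing granulocytes, was the least even member. It was at 276, 37.6, 45.6 and 49.7 in WT libraries 1 to 4. It was at 36.1, 36.05, 17.7 and 14.8 in Eμ-Myc, and at 78.03, 44.9, 7.97 and 7.17 in Eμ-Myc; PRPS2 KO. Each Eμ-Myc library was below each WT library, while the knockout libraries spanned the whole range but for WT library 1. The log2 difference in Eμ-Myc against WT was -1.51 ± 0.62 and did not pass (limma adjusted p = 0.0644). Without WT library 1 it was -0.85 ± 0.32 (limma adjusted p = 0.0542). It passed when libraries were scaled by total coverage (-1.65, limma adjusted p = 0.0384) or weighted by quality (-1.39, adjusted p = 0.0110). It also passed with a replicate block (-1.51, limma adjusted p = 0.0281). It was -1.68 ± 0.93 in Eμ-Myc; PRPS2 KO against WT (limma adjusted p = 0.169), -1.02 without WT library 1 (adjusted p = 0.370) and from -2.29 to -1.17 without any other single library (adjusted p 0.0556 to 0.369).

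Myeloid markers followed Mxd1 in some libraries and not in others. Ltf, which encodes the granule protein lactoferrin and was named after its values were seen, was at 2287 in WT library 1 and at 155 to 791 in the other WT libraries. It was at 452, 903, 211 and 199 in Eμ-Myc libraries 1 to 4, at 861 and 689 in knockout libraries 1 and 2, and at 81.8 and 21.4 in knockout libraries 3 and 4. The libraries with the highest and the lowest Ltf were those with the highest and the lowest Mxd1, but WT library 2 (Ltf 156) and Eμ-Myc library 2 (Ltf 903) had Mxd1 at 37.6 and 36.05. The 10 myeloid markers summed to 8359 to 28022 in WT, 6083 to 17711 in Eμ-Myc and 1357 to 16000 in Eμ-Myc; PRPS2 KO, with no marker at 0 in any library. With limma, 0 of the 10 were called in Eμ-Myc against WT, and 1 had an unadjusted p under 0.05. Mpo (1.33 ± 0.73) and Elane (1.31 ± 0.82), granule enzymes of early granulocytes, had log2 differences of the opposite sign to Mxd1, and those of the other 8 were negative. The part of myeloid RNA in the Mxd1 values was not tested.

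**Figure D2:**
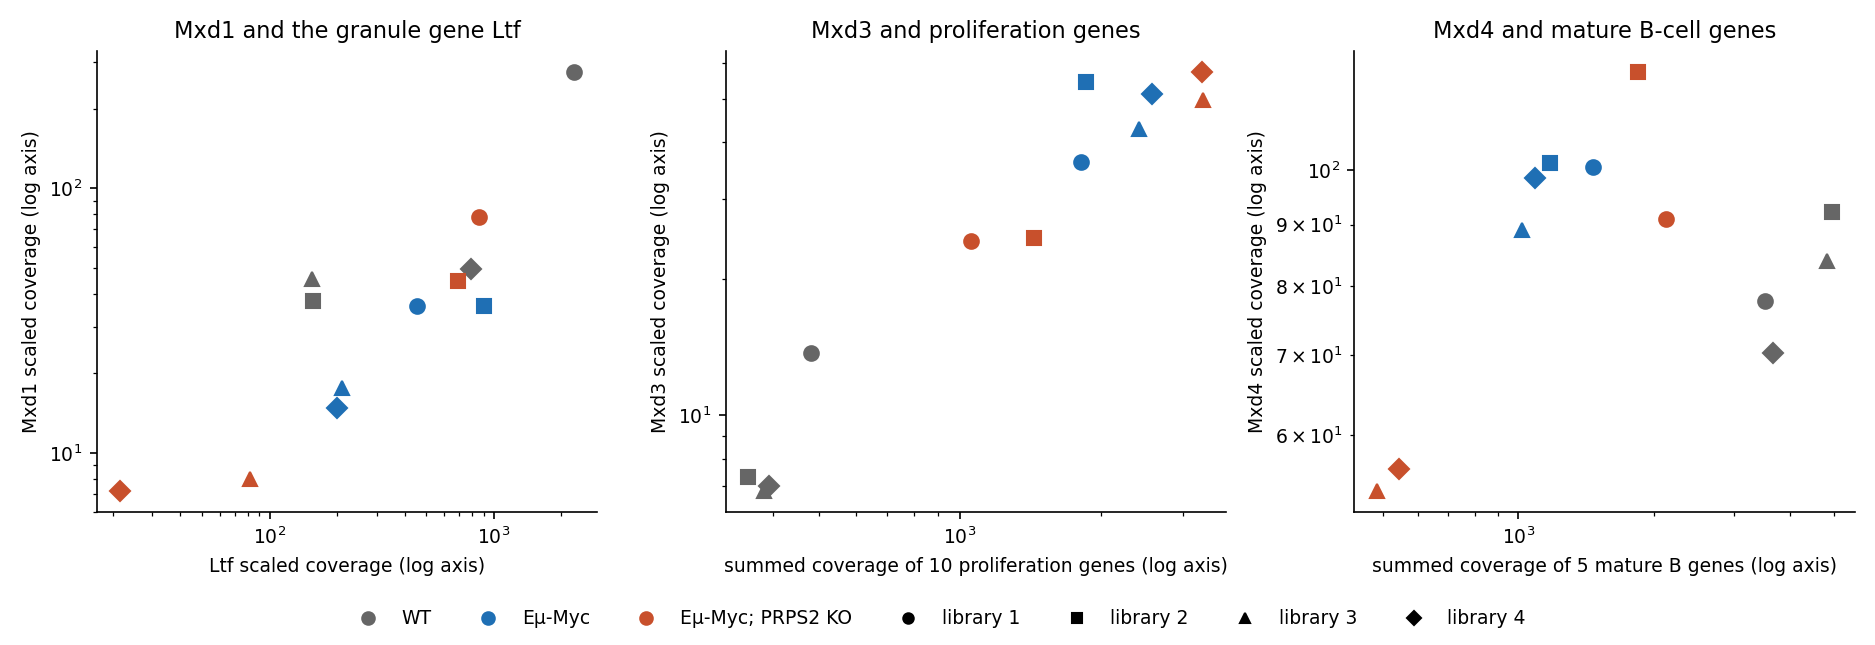
Scaled coverage of Mxd1 against Ltf, of Mxd3 against the summed scaled coverage of 10 proliferation genes, and of Mxd4 against that of 5 mature B-cell genes, in the 12 libraries on logarithmic axes. Colour gives the group and shape the replicate number; WT library 1 is at the top right of the plot of Mxd1 with Mxd1 at 276 and Ltf at 2287, and knockout libraries 3 and 4 are at its lower left.

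Mnt (chr11:74830920-74845725, plus strand), the MAX partner found in most cell types, fell slightly. It was at 32.9, 35.1, 36.5 and 31.0 in WT. It was at 30.4, 22.3, 27.5 and 25.8 in Eμ-Myc, and at 29.9, 28.5, 25.9 and 26.9 in Eμ-Myc; PRPS2 KO. Every library with the transgene was below every WT library, by a small margin for the nearest. The log2 change was -0.36 ± 0.12 in Eμ-Myc against WT (limma adjusted p = 0.0321), and it did not pass without WT library 2 or 3 or Eμ-Myc library 2, 3 or 4 (-0.38 to -0.28, adjusted p 0.0546 to 0.0893). It was -0.28 ± 0.12 in Eμ-Myc; PRPS2 KO against WT and did not pass (limma adjusted p = 0.0881).

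Mga (chr2:119897228-119969581, plus strand), the scaffold of the polycomb-type complex, was at 30.9, 37.0, 49.6 and 38.1 in WT. It was at 36.6, 18.8, 32.0 and 38.6 in Eμ-Myc, and between 38.2 and 40.2 in all 4 libraries of Eμ-Myc; PRPS2 KO. The groups overlapped, and Eμ-Myc library 2 was the lowest of the 12. The log2 difference was -0.33 ± 0.23 in Eμ-Myc against WT (limma adjusted p = 0.252), -0.10 without Eμ-Myc library 2 (adjusted p = 0.606), -0.21 without WT library 3 (adjusted p = 0.495), and 0.02 ± 0.15 in Eμ-Myc; PRPS2 KO against WT (adjusted p = 0.912), where scaling by total coverage gave -0.08.

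Mlx (chr11:101087277-101092207, plus strand), the MAX-like partner, fell in both groups with the transgene. It was at 189, 171, 153 and 179.8 in WT. It was at 122, 144, 116 and 129 in Eμ-Myc, and at 129, 134, 133 and 136 in Eμ-Myc; PRPS2 KO. No library with the transgene reached the lowest WT library. The log2 change was -0.44 ± 0.11 in Eμ-Myc against WT (limma adjusted p = 0.00640), and the call held when any of the 8 libraries was left out (adjusted p 0.00389 to 0.0254). It was -0.38 ± 0.11 in Eμ-Myc; PRPS2 KO against WT (limma adjusted p = 0.0406). That call was lost without any single WT library or without knockout library 2, 3 or 4 (-0.43 to -0.33, limma adjusted p 0.0581 to 0.102). It was also lost with no filter on low values (limma adjusted p = 0.0572) or with a replicate block.

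Exons of Mlx share 385 bases, 19.3% of its exonic length, with Psmc3ip on the opposite strand. Psmc3ip moved the other way, from 9.15 ± 0.533 in WT to 37.8 ± 6.50 in Eμ-Myc, a log2 change of 1.97 ± 0.15 (limma adjusted p = 1.02e-05). Among the other partners of MLX, Mlxip was at 37.2 ± 4.96 in WT and 30.5 ± 6.41 in Eμ-Myc and was not called, and Mlxipl lay under 1 in every library and was not tested.

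The order of the members changed with the transgene. In WT it ran Max, Myc, Mlx, Mxi1, Mxd1, Mxd4, Mga, Mnt, Mxd3 and Mycn. The place of Mxd1 rests on WT library 1, without which it averaged 44.3 ± 6.15 (SD, n = 3) and came after Mxd4, at 82.1 ± 11.04. In Eμ-Myc it ran Myc, Max, Mxi1, Mlx, Mxd4, Mxd3, Mga, Mnt, Mxd1 and Mycn, and in Eμ-Myc; PRPS2 KO the first 5 were the same and Mga, Mxd3, Mxd1 and Mnt followed before Mycn. In WT the ranges of Mlx and Mxi1, Mxi1 and Mxd1, Mxd1 and Mxd4, and Mga and Mnt overlapped. In the other groups, of the genes next to each other in the order, only those among Mxd3, Mga, Mnt and Mxd1 overlapped. Genes farther apart could overlap too. In Eμ-Myc; PRPS2 KO, Mxd4 (53.9 to 120.8) overlapped Mxd3 (24.3 to 57.3) and Mxd1 (7.17 to 78.03).

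The 6 MAX-binding antagonists Mxd1, Mxd3, Mxd4, Mxi1, Mnt and Mga were also summed, as coverage per base. The sum was 697 in WT library 1 and 322 to 353 in the other WT libraries. It was 443 to 491 in Eμ-Myc and 465 to 483 in Eμ-Myc; PRPS2 KO, which lay inside the Eμ-Myc range although Mxd1, Mxd3, Mxd4 and Mxi1 differed between its libraries. Mxi1 made up 38.4% ± 1.09 of the sum in WT, 52.0% ± 0.739 in Eμ-Myc and 53.8% ± 9.21 in Eμ-Myc; PRPS2 KO. Mxd3 made up 2.05% ± 0.118, 9.77% ± 1.72 and 8.18% ± 3.60 in the same order. The share of Mxd1 was 10.9% to 39.6% in WT, 3.09% to 7.49% in Eμ-Myc and 1.49% to 16.3% in Eμ-Myc; PRPS2 KO.

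The ratio of Myc to that sum was 0.403 to 1.08 in WT, 3.21 to 5.14 in Eμ-Myc and 2.25 to 6.88 in Eμ-Myc; PRPS2 KO. Without Mxd1 in the sum it was 0.668 to 1.28, 3.47 to 5.35 and 2.69 to 6.98. WT and the groups with the transgene did not overlap in either form. Within Eμ-Myc; PRPS2 KO the ratio was 2.25 and 3.37 in libraries 1 and 2, and 6.56 and 6.88 in libraries 3 and 4.

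**Figure D3:**
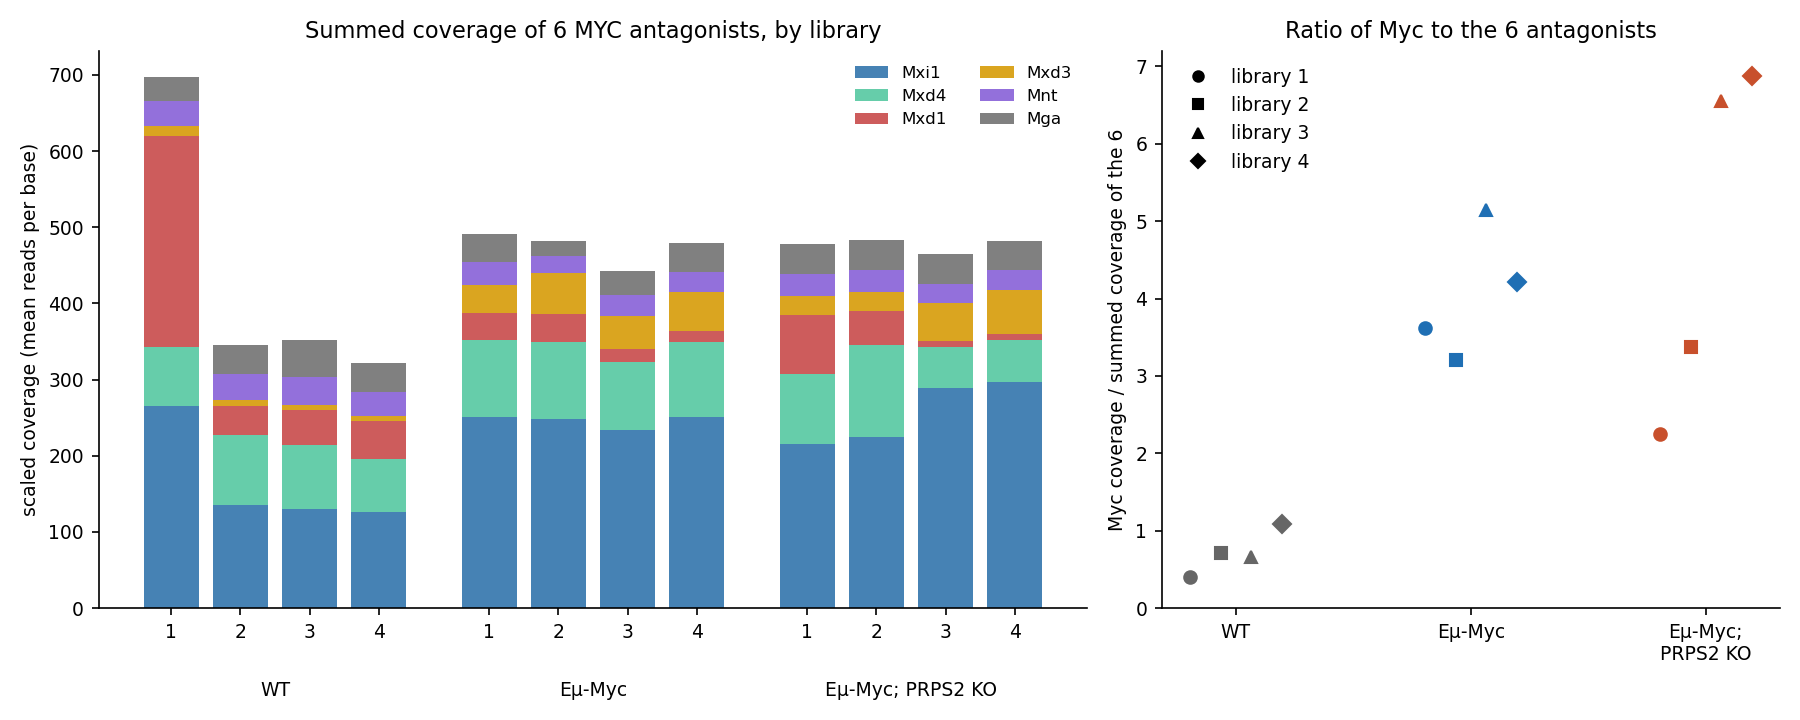
Left, scaled coverage (mean reads per base) of the 6 MAX-binding antagonists stacked in each library, numbered by replicate. Right, the ratio of Myc coverage to that sum, 1 symbol a library; the sum is highest in WT library 1 (697, of which Mxd1 is 39.6%), and the ratio is 0.403 to 1.08 in WT and 2.25 or more in the groups with the transgene.

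In Eμ-Myc; PRPS2 KO against Eμ-Myc, no member was called by limma, and 0 of 9 had an unadjusted p under 0.05. With libraries weighted by quality, which gave knockout libraries 3 and 4 more weight than 1 and 2, 6 members and 60.4% of all genes were called, so the members' share was again near the background. Without weights, 0.00798% of all 12531 genes tested were called, which is Prps2 alone, and 119 had an unadjusted p under 0.05. For no member were the groups separate, beside 1.51% of all genes (0.774% higher and 0.734% lower). The members' log2 differences ran from -0.35 ± 0.26 for Mxd4 to 0.35 ± 0.22 for Mga. Without Eμ-Myc library 2 that of Mga was 0.13, and that of Mxd4 was -0.19 and -0.21 without knockout library 3 or 4 and -0.58 without knockout library 2. Those of Myc (0.12 ± 0.36), Max (0.08 ± 0.12), Mxi1 (0.05 ± 0.14), Mnt (0.08 ± 0.13) and Mlx (0.06 ± 0.11) lay near 0. Those of Mxd3 (-0.33 ± 0.31) and Mxd1 (-0.17 ± 0.79) were negative with all libraries. With single libraries left out, Mxd3 ran from -0.55 to -0.15, and Mxd1 ran from -0.78 to 0.33, so its sign turned. The SE was widest for Mxd1 and Myc, whose change is bounded least by these libraries.

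The spread within Eμ-Myc; PRPS2 KO was larger than the difference of its mean from Eμ-Myc for several members. Its coefficient of variation was 47.9% for Myc, 43.7% for Mxd3 and 39.5% for Mxd4, against 16.5%, 17.8% and 5.87% in Eμ-Myc. For Mnt, Mga and Mlx it was 6.38%, 2.33% and 2.41%, against 12.8%, 28.2% and 9.23% in Eμ-Myc. With knockout libraries 3 and 4 alone, in which the T-cell and myeloid markers are lowest, the log2 difference from Eμ-Myc was 0.75 for Myc, -0.81 for Mxd4 and -1.62 for Mxd1.

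With knockout libraries 1 and 2 alone these were -0.51 for Myc, 0.11 for Mxd4 and 1.27 for Mxd1, each of the opposite sign, and -0.89 for Mxd3. The pairs of libraries were chosen after the data were seen, by markers that divide the group the same way as Myc does. These differences are therefore given as a description, and limma's calls on the pairs are not used as support. Cell type, proliferation and the knockout cannot be told apart within them. In Eμ-Myc, too, libraries 3 and 4 were above 1 and 2 in Myc (2277 and 2019, against 1778 and 1544). In Mxd1 the same Eμ-Myc libraries were below 1 and 2 (17.7 and 14.8, against 36.1 and 36.05).

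In Eμ-Myc; PRPS2 KO against WT, 3 of the 9 tested members were called, Myc and Mxd3 higher and Mlx lower. Of all 12665 genes tested, 29.3% were called (15.8% higher and 13.4% lower). None of the members' calls held when WT library 2 or WT library 3 was left out, where 0.140% and 0.117% of all genes were called. Quality weights called 8 members and 83.1% of all genes. For 4 members, Myc, Mxd3, Mnt and Mlx, the groups did not overlap, beside 37.7% of all genes (19.0% higher and 18.7% lower). The members' median log2 difference was 0.02, that of all genes -0.06. For the same pairs of knockout libraries, again as a description, the log2 difference from WT was 2.27 for Myc, 1.50 for Mxd3, -0.23 for Mxd1 and 0.38 for Mxd4 in libraries 1 and 2. It was 3.54 for Myc, 2.61 for Mxd3, -3.12 for Mxd1 and -0.55 for Mxd4 in libraries 3 and 4.

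**Figure D4:**
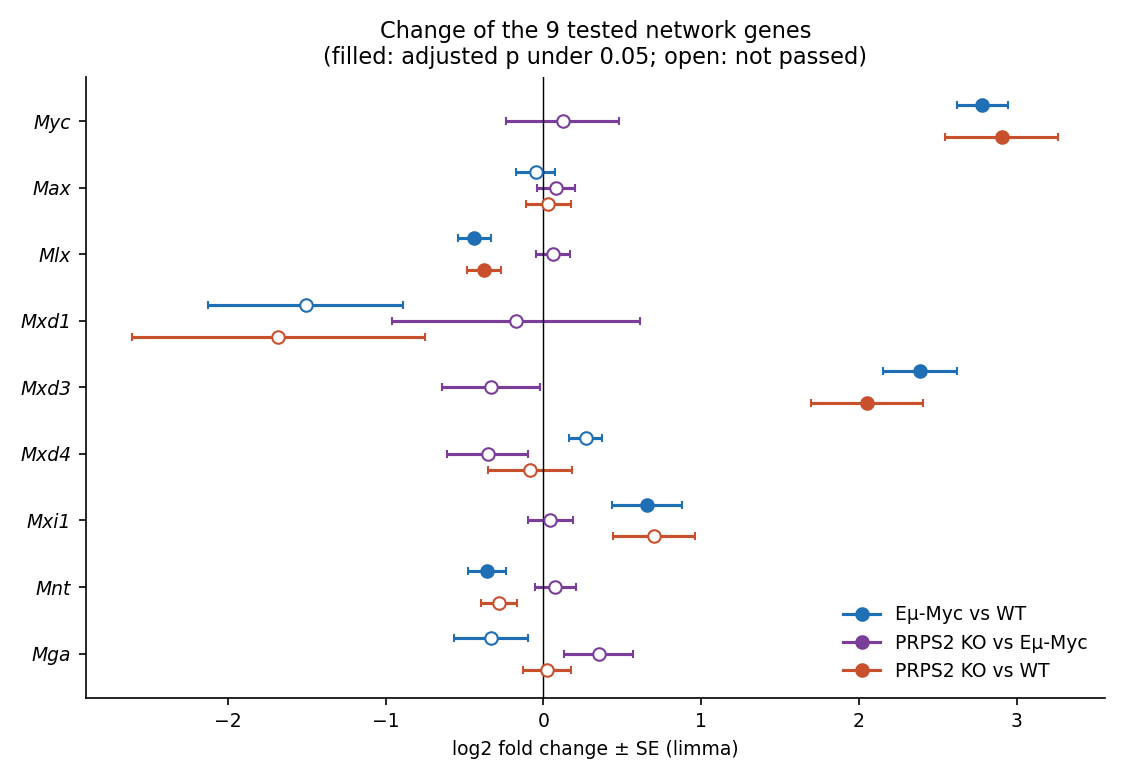
Log2 fold change ± SE from limma of the 9 tested members in the 3 comparisons (4 libraries a group), with filled symbols for an adjusted p under 0.05. Myc (2.78 and 2.91) and Mxd3 (2.39 and 2.05) stand to the right in the comparisons with WT, and no symbol is filled for PRPS2 KO against Eμ-Myc.

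Genes on which the network acts or depends were taken from lists, whose counts stand beside the 29.0% higher and 26.6% lower of all genes in Eμ-Myc against WT and the 15.8% and 13.4% in Eμ-Myc; PRPS2 KO against WT. Every count of calls given for these lists in Eμ-Myc; PRPS2 KO against WT, proliferation included, went to 0 by limma without WT library 2 or WT library 3. Of 25 genes known to be induced by MYC, 23 rose and 1 fell in Eμ-Myc against WT, with a median log2 fold change of 1.59, and the same counts when any of the 8 libraries was left out. The 3 with the smallest adjusted p were Shmt2, a mitochondrial one-carbon enzyme (2.08 ± 0.11, limma adjusted p = 2.47e-06), Srm, spermidine synthase (2.49 ± 0.12, adjusted p = 2.47e-06), and Rcc1, the RAN exchange factor (2.22 ± 0.12, adjusted p = 2.73e-06). The gene that fell was Ccnd2, cyclin D2, from 69.9 ± 13.4 in WT to 23.4 ± 4.87 in Eμ-Myc. Tert, telomerase, was at 3.59 ± 1.06 and 3.71 ± 0.652 and was not called. Ccnd2 and Tert were named after their values were seen.

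The same list had 23 genes higher and 1 lower in Eμ-Myc; PRPS2 KO against WT (median 1.55), with Tfrc, the transferrin receptor, among the 3 with the smallest adjusted p at 1.88 ± 0.27 (limma adjusted p = 0.0137). Without WT library 2 or 3, 24 of the 25 had an unadjusted p under 0.05 and the medians were 1.57 and 1.51, with 0 called by limma. Without WT library 1 or 4 or knockout library 3 or 4, 9, 13, 10 and 9 were called higher and 0 lower. Its summed coverage was 5688 to 6810 in WT, 15204 to 19979 in Eμ-Myc, 10361 and 12904 in knockout libraries 1 and 2, and 27323 and 26512 in libraries 3 and 4. Knockout libraries 3 and 4 were thus above 1 and 2 in these genes as in Myc, while library 4, the higher in Myc, was the lower of its pair in this sum. CACGTG was in the promoter window of 7 of the 20 matched genes of this list (35.0%), beside 1169 of 9793 genes tested in Eμ-Myc against WT. Among all tested genes with a window that holds CACGTG, 32.3% rose and 23.9% fell in Eμ-Myc against WT, and among those with a window that lacks it 29.0% rose and 27.1% fell.

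Of 9 genes that MYC is known to repress, 3 fell and 2 rose in Eμ-Myc against WT (median -0.47), a share of calls like the 55.6% of all genes. Cdkn1b, which encodes the CDK inhibitor p27, fell by 0.83 on the log2 scale (SE 0.11, limma adjusted p = 0.000232), and Ndrg1, a stress-responsive gene, fell by 1.57 (SE 0.27, adjusted p = 0.00115). Cdkn1c, a CDK inhibitor that belongs to the repressed list, instead rose from 2.75 ± 1.24 to 38.6 ± 10.6, a log2 change of 3.62 ± 0.28 (limma adjusted p = 1.17e-05). Without Eμ-Myc library 2 or 3, 1 of the 9 rose and 2 fell. The knockout group against WT had 1 higher and 4 lower (median -0.85), and 0 of either without WT library 1, 2 or 3 or knockout library 3 or 4 by limma.

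Of 16 coactivators that MYC recruits, 7 rose and 3 fell in Eμ-Myc against WT (median 0.15), so 10 were called, near the 55.6% of all genes. Ruvbl1 (1.57 ± 0.12, limma adjusted p = 8.68e-06) and Ruvbl2 (1.56 ± 0.11, adjusted p = 8.63e-06), the paired ATPases of the TIP60 and INO80 complexes, and Actl6a (1.07 ± 0.12, adjusted p = 6.82e-05), an actin-related subunit, led the list. The 3 that fell, named after their values were seen, were the acetyltransferases Kat2b (-0.80 ± 0.18), Ep300 (-0.68 ± 0.19) and Crebbp (-0.76 ± 0.17). For Eμ-Myc; PRPS2 KO against WT 5 rose, among them Kat2a, the acetyltransferase GCN5 (1.12 ± 0.23, limma adjusted p = 0.0209), and 0 fell by limma (8 had an unadjusted p under 0.05 in either direction). Leaving out WT library 1, 2 or 3 or knockout library 3 or 4 left no call there, for these or for the corepressors.

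Corepressors that the MXD proteins and MNT recruit, the SIN3 and NCOR complexes, had 5 of 13 higher and 2 lower in Eμ-Myc against WT (median 0.17), again near the 55.6% of all genes. Rbbp7 (1.11 ± 0.095, limma adjusted p = 1.95e-05), Rbbp4 (1.09 ± 0.10, adjusted p = 3.48e-05) and Hdac2 (1.01 ± 0.11, adjusted p = 9.31e-05), histone-binding and deacetylase subunits shared with other complexes, rose. Against WT, the knockout group had 3 higher and 2 lower (median 0.23), among the latter Arid4b, a SIN3 subunit (-0.76 ± 0.19, limma adjusted p = 0.0295).

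Partners of MGA in its polycomb complex had 7 of 11 higher and 1 lower in Eμ-Myc against WT, with a median of 0.87, while Mga itself was not called. Tfdp1, the dimer partner of E2F factors, rose by 2.20 ± 0.21 (limma adjusted p = 3.94e-05), Cbx1, a heterochromatin protein, by 1.00 ± 0.10 (adjusted p = 5.53e-05), and E2f6, a repressive E2F, by 0.95 ± 0.11 (adjusted p = 8.41e-05). Against WT, 5 rose and 0 fell in Eμ-Myc; PRPS2 KO by limma (8 had an unadjusted p under 0.05 in either direction), among the former Tfdp2 (0.96 ± 0.19, adjusted p = 0.0190), and at most 2 rose when any single WT library or knockout library 3 or 4 was left out.

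Genes that set the stability of the MYC protein had 5 of 15 higher and 2 lower in Eμ-Myc against WT (median 0.12), beside the 55.6% called of all genes. Skp2, a ubiquitin ligase subunit, rose by 1.93 ± 0.13 (limma adjusted p = 6.99e-06), Cip2a, an inhibitor of the phosphatase that destabilises MYC, by 2.77 ± 0.26 (adjusted p = 3.04e-05), and Set, another such inhibitor, by 1.16 ± 0.095 (adjusted p = 1.64e-05). Against WT, 6 of them rose in Eμ-Myc; PRPS2 KO, including Aurka, a mitotic kinase that binds MYC family proteins (2.37 ± 0.43, limma adjusted p = 0.0151), and 1 fell, with at most 3 higher and 0 lower by limma when any single WT library or knockout library 3 or 4 was left out. Several of these genes are also cell-cycle genes, and all 10 of the proliferation list rose in both comparisons with WT (medians 3.00 and 3.00). In the second, all 10 had an unadjusted p under 0.05 without WT library 2 or 3, with 0 called by limma. The part of proliferation in these lists was not tested.

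Other transcription factors that bind E-boxes had 3 of 11 higher and 2 lower in Eμ-Myc against WT (median -0.39), beside the 29.0% and 26.6% of all genes, and 4 lower without WT library 4. Tfap4, a factor known as a direct MYC target, rose by 1.94 ± 0.16 (limma adjusted p = 1.86e-05), Arntl, the clock factor BMAL1, rose by 0.67 ± 0.12 (adjusted p = 0.00122), and Bhlhe40, an E-box repressor, fell by 2.14 (SE 0.28, adjusted p = 0.000213). Against WT the knockout group had 3 higher and 2 lower, with Bhlhe41 among the former (1.03 ± 0.22, limma adjusted p = 0.0221). Between the knockout group and Eμ-Myc no gene of these 8 lists, proliferation included, was called by limma, and 0 had an unadjusted p under 0.05.

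**Figure D5:**
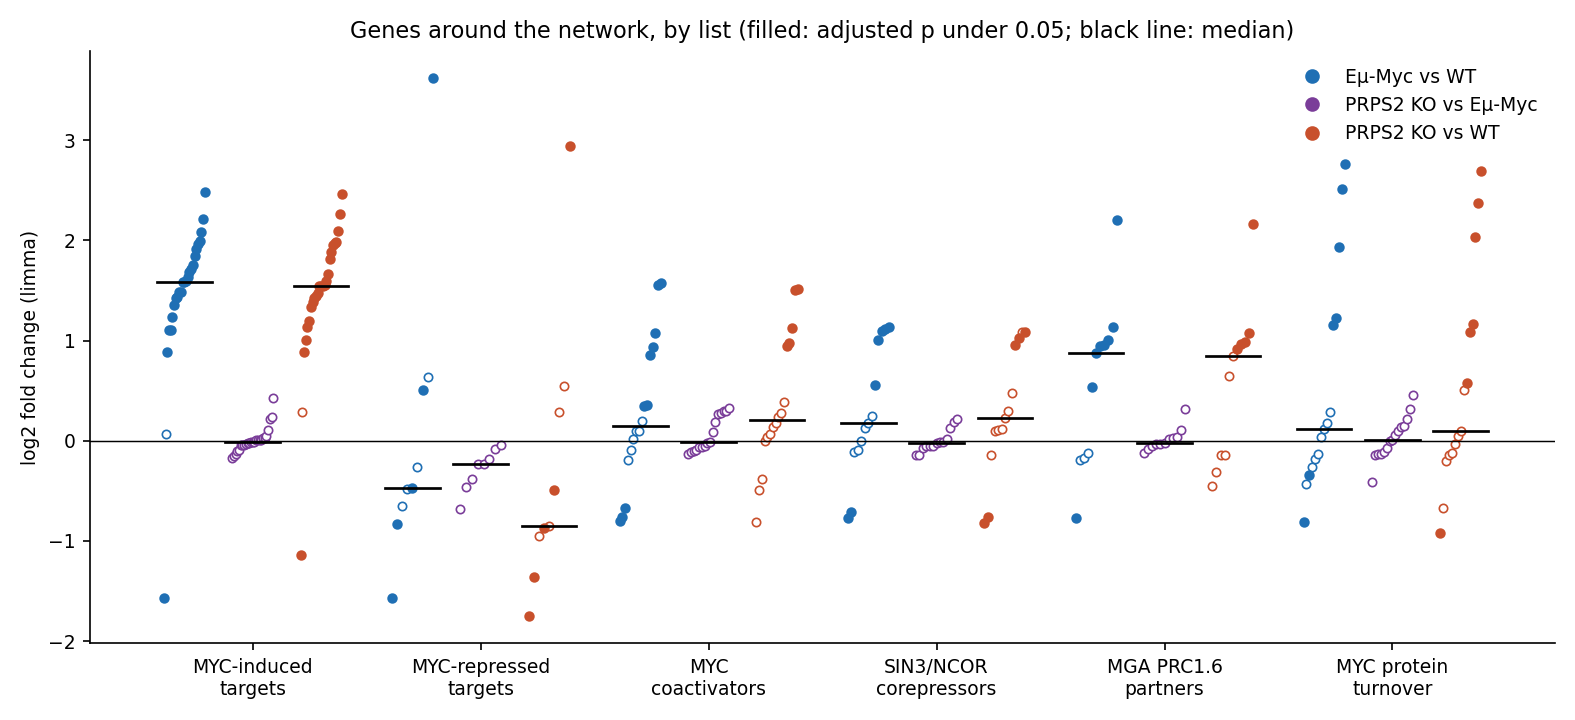
Log2 fold changes from limma for the genes of 6 lists around the network in the 3 comparisons, 1 symbol a gene, filled for an adjusted p under 0.05, with a black line at the list's median. The MYC-induced genes have medians of 1.59 and 1.55 in the comparisons with WT, and all symbols of PRPS2 KO against Eμ-Myc are open.

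The cell type markers also changed between the groups. In Eμ-Myc against WT all 8 measured T-cell markers, all 6 NK markers and all 5 mature B-cell markers were called lower, 5 of 7 early B-cell markers were higher, and 2 of 8 B-cell identity, 2 of 4 plasma cell and 1 of 4 platelet markers were lower. The 8 erythroid markers had no call by limma and 0 unadjusted p under 0.05. The T-cell sums were 435 to 2541 in WT, 90.0 to 125 in Eμ-Myc and 12.4 to 554 in Eμ-Myc; PRPS2 KO, and those of NK cells 284 to 1310, 78.5 to 221 and 18.8 to 498, with none of these markers at 0 in any library. Of the markers in Eμ-Myc; PRPS2 KO against WT, 1 of 8 B-cell identity, 3 of 5 mature B-cell and 4 of 4 platelet markers were lower and 5 of 7 early B-cell markers higher. By limma 0 T-cell, NK, myeloid, erythroid and plasma cell markers were called there, and 6, 2, 1, 0 and 2 had an unadjusted p under 0.05. Without knockout library 1, all 8 T-cell and all 6 NK markers were called lower there, and without WT library 2 or 3 only 1 marker, of early B cells, was called. Between the knockout group and Eμ-Myc no marker was called by limma, and 1 early B-cell and 3 platelet markers had an unadjusted p under 0.05. How far these marker changes enter the changes of the members was not tested.

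The genes whose pattern over the 12 libraries was nearest to a member were found by the root mean square difference of centred log2 values, among 9643 genes. Nearest to Myc were Rad54l, a recombination helicase (0.156), Dctd, a deoxycytidylate deaminase (0.158), and Ryk, a Wnt receptor (0.204). Nearest to Mxd3 were Tacc3, a spindle protein (0.163), Tcf19 (0.169) and H2afx, a histone variant (0.193). Nearest to Mxd4 were Fgd2 (0.187), Traf5 (0.222) and Dyrk1b (0.226). The member nearest to Myc was Mxd3, at 0.492, farther than any of the genes named for either.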

How the data were processed

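Per the labels, polyadenylated RNA of splenic B lymphocytes was made into directional libraries, 4 a group. The authors deposited the mean read coverage of each gene, a signal not scaled for depth, as judged from the values. The submitters' processing notes name mm10, R 4.3.3 and DESeq. The aligner, the counting step and its use of strand are not given in the sources used here.

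Libraries were scaled by unweighted trimmed means of log ratios (30% of ratios and 5% of mean values trimmed, genes with mean coverage of at least 1). limma 3.58.1 in R 4.3.3, with the trend and robust options of its empirical Bayes step, modelled log2(scaled coverage + 0.5) in the 8 libraries compared, two-sided, with Benjamini-Hochberg adjustment over all genes tested. A fold change on this scale understates the change of low genes. Read depth is unknown, so precision rests on the libraries alone. The script was tested on simulated data. Tables and figures used Python 3.11.15, numpy 2.4.6, pandas 2.3.3 and matplotlib 3.10.9. Gene positions came from the GENCODE annotation of GRCm38, and promoters from RefSeq.

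All members were named. Of each other list, each comparison names up to 3 called genes, those of smallest adjusted p, and for Myc, Mxd3 and Mxd4 the 3 genes nearest in pattern among those averaging 8 or more in scaled coverage. Marker genes and overlapping genes were named where a result turned on them. The family, its members by name, the lists and the tests were chosen with earlier results of these data known. Ighm, Ighd and Trac were not analysed here.

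Replicate numbers 1 to 4 recur in every group of the labels. Libraries with the same number deviated from their group means together, at r of 0.661, 0.193, 0.255 and 0.609 across genes between Eμ-Myc; PRPS2 KO and Eμ-Myc, all over 0.1. They were therefore taken as possible pairs, from the values alone, although knockout libraries 2 and 3 correlated best with Eμ-Myc libraries 1 and 4. The main fit did not pair them, and only the replicate block among the alternatives did. In the other comparisons at least 1 correlation was under 0.1.

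Alternatives were other scalings (median-of-ratios, total coverage), pseudocounts of 0.1 and 2, a filter of 10 in each library or none, a joint fit of the 12 libraries, a replicate block, library quality weights and leaving out each library. Using knockout libraries 1 and 2 or 3 and 4 alone was added after seeing the data.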

Additional observations from a re-analysis of the deposited data

Results flagged for a closer look

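In 4 of 30 sets of 4 libraries (10 members in 3 groups), the highest or lowest library lay farther from the others than Dixon's 95% critical value allows, where chance flags about 1 in 20 groups. Mxd1 in WT library 1 was at 276, against 37.6 to 49.7 in the other WT libraries. Mxi1 in WT library 1 was at 265, against 126 to 136. Mxd3 in WT library 1 was at 13.7, against 6.80 to 7.33. These all fall in the library with the highest Ltf and the highest summed myeloid markers, and in it Mki67 was at 30.4, against 12.6 to 22.6 in the other WT libraries. Mxi1 in Eμ-Myc library 3 was at 234, against 249 to 251 in the other Eμ-Myc libraries, a small distance in a tight group.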

How the results depend on the processing

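Of 491 log2 fold changes recomputed for members, 410 kept their direction and side of the threshold, 27 lost a call, 26 gained one and 28 changed sign. Myc, Mxd3 and Mlx in Eμ-Myc against WT kept their calls under each alternative that gave a value. Library quality weights called 6 members in Eμ-Myc; PRPS2 KO against Eμ-Myc (Myc, Max, Mxi1 and Mlx higher, Mxd1 and Mxd4 lower) and 8 against WT, beside 60.4% and 83.1% of all genes. They gave knockout libraries 3 and 4 more weight than 1 and 2, and turned Mnt to -0.033 and Mxd3 to 0.29 against Eμ-Myc and Mga to -0.082 against WT. Knockout libraries 3 and 4 alone called 3 members against Eμ-Myc (Mxd3 turned to 0.22) and 7 against WT, beside 28.3% and 69.5% of all genes. Libraries 1 and 2 alone called 1 against Eμ-Myc (8.36% of all genes), with Max at -0.015, Myc at -0.51, Mxi1 at -0.16, Mxd4 at 0.11 and Mxd1 at 1.27, and turned Max to -0.063 and Mxd4 to 0.38 against WT. Total coverage scaling turned Max to -0.074 and Mga to -0.083 in Eμ-Myc; PRPS2 KO against WT. The pairs of knockout libraries were chosen after the values were seen, by markers that divide the group as Myc does, so their counts support nothing. The causes were not tested.

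Leaving out each library gave 3 to 5 members called in Eμ-Myc against WT, 0 to 0 in Eμ-Myc; PRPS2 KO against Eμ-Myc and 0 to 4 in Eμ-Myc; PRPS2 KO against WT, beside 47.0% to 55.1%, 0.00789% to 0.00793% and 0.117% to 53.1% of all genes. Signs turned within these ranges: Max in Eμ-Myc against WT, -0.12 to 0.051. Against Eμ-Myc, the knockout group gave Mxd1 -0.78 to 0.33, Mnt -0.0016 to 0.14, Myc -0.11 to 0.43 and Mxi1 -0.029 to 0.12. Against WT it gave Mga -0.080 to 0.14, Max -0.037 to 0.13 and Mxd4 -0.31 to 0.080. None of these was called.

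A replicate block gave 6 members called in Eμ-Myc against WT (Mxd1 added), 0 in Eμ-Myc; PRPS2 KO against Eμ-Myc and 2 against WT (Mlx lost), beside 57.2%, 0.00798% and 11.5% of all genes. In the comparisons with WT the libraries share only a number, with correlations of 0.232, -0.0983, 0.266 and 0.135 for Eμ-Myc and 0.398, -0.425, 0.135 and -0.0638 for Eμ-Myc; PRPS2 KO, and not every library correlated best with its own number. The block changed no other call. Groups of 4 libraries and an unknown read depth limit what can be detected.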
